A study of Arabidopsis thaliana with 7 samples.

Results

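SBT1.7, PME58 and PMEI14 act on the methylesterification of seed mucilage pectin in Arabidopsis thaliana, and their transcript levels were followed over 7 Affymetrix arrays of developing seeds. The genes were chosen by name: every probe set annotated to exactly 1 of SBT1.7 (AT5G67360, listed as ARA12 in the gene table), PME58 (AT5G49180) and PMEI14 (AT1G56100). The choice gave 3 probe sets of 22746 tested, 1 for each gene. The seeds came from plants carrying the myb5-1 allele (n = 3 arrays) and from wild-type plants of the Col accession (n = 4 arrays). Both genotypes were grown together on soil in constant light, and seeds were taken at globular to walking-stick embryo stages. Samples of a genotype are biological replicates per the series design text. Whole seeds were used, so embryo, endosperm and seed coat are measured together, and fewer cells of a type cannot be told apart from less RNA per cell. The design asks which transcripts differ between myb5 and wild-type seeds.

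Seed mucilage is a pectin-rich gel that epidermal cells of the seed coat deposit and release on wetting. Homogalacturonan, a pectin, is secreted with methyl ester groups on its sugar residues. Pectin methylesterases remove these groups, which allows calcium to link the chains and stiffens the gel, and pectin methylesterase inhibitors block the enzymes. PME58 is such a methylesterase of mucilage-secreting cells, and PMEI14 is an inhibitor expressed in the seed coat. SBT1.7 is a secreted subtilisin-like protease, and seeds that lack it have raised methylesterase activity and release mucilage poorly. MYB5 is a MYB transcription factor of the seed coat, where it acts with partner proteins on epidermal differentiation, mucilage and tannins.

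MYB5, the mutated gene, was not analysed here. The arrays correlated at 0.933 to 0.985 with each other across probe sets, and 0 pairs of arrays were identical. The first principal component, which held 56.8% of the variance, set myb5 replicate 1 and wild-type replicates 1 and 2 apart from the other 4 arrays. These 3 arrays are called the set-apart arrays below. The set was read from the data and not from the labels, so values along it are descriptions without a test, and genotype differences are also given within each set.

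None of SBT1.7, PME58 and PMEI14 passed the test between myb5 and wild-type seeds. All 3 were bright in every array, with deposited intensities between 3980 and 10112. SBT1.7 had nearly equal means in the genotypes, and PME58 and PMEI14 had higher means in myb5, by less than the spread between arrays. Over all probe sets 1 passed (0.0044%), and 788 (3.46%) had an unadjusted limma p under 0.05, against 0 of the 3 genes. Without overlap between the genotypes were 4.35% of all probe sets and 0 of the 3 genes.

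SBT1.7, the protease, had intensities of 5074, 6664 and 6504 in myb5 replicates 1 to 3, against 5206, 5586, 6152 and 7667 in wild-type replicates 1 to 4. The genotypes overlapped, with the lowest value in a myb5 array and the highest in a wild-type array. The mean intensity was 6081 ± 875 in myb5 (SD, n = 3) and 6152 ± 1082 in wild type (SD, n = 4). On the quantile-normalized log2(intensity + 16) scale used for testing, myb5 and wild type differed by -0.002 ± 0.17 (standard error; limma adjusted p = 1). The 95% interval of that fit ran from -0.39 to 0.39, or 0.764 to 1.31 as a ratio of myb5 to wild type. The exact two-sided permutation p over the 35 splits of the arrays was 1.0. The sign of a difference this near 0 is not fixed: it was 0.11 without myb5 replicate 1 and 0.10 without wild-type replicate 4.

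PME58, the methylesterase, had intensities of 4962, 7341 and 7577 in myb5 replicates 1 to 3, against 4519, 4314, 6653 and 6678 in wild-type replicates 1 to 4. The highest 2 values were in myb5 arrays and the lowest 2 in wild-type arrays, but myb5 replicate 1 lay below wild-type replicates 3 and 4. The mean was 6627 ± 1447 in myb5 (SD, n = 3) and 5541 ± 1301 in wild type (SD, n = 4). On the log2 scale this was a difference of 0.29 (standard error 0.22), a ratio of 1.23 (limma adjusted p = 1, unadjusted 0.225). Its 95% interval ran from -0.23 to 0.81, or 0.855 to 1.76 as a ratio, so a rise of that order is neither shown nor excluded by this fit. The exact permutation p was 0.314.

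Within each set of arrays PME58 was higher in every myb5 array than in every wild-type array. Among the arrays outside the set it had 7341 and 7577 in myb5, against 6653 and 6678 in wild type, a log2 difference of 0.20 (limma adjusted p = 0.984). Among the set-apart arrays it had 4962 in the lone myb5 array, against 4519 and 4314 in wild type, a log2 difference of 0.22. With a term for the set the difference was 0.21 (standard error 0.12, limma adjusted p = 0.921). This order within both sets was seen after the values, and 5.72% of all probe sets showed it on the normalized scale.

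PMEI14, the inhibitor, had intensities of 4094, 10112 and 7113 in myb5 replicates 1 to 3, against 3980, 4239, 9667 and 7417 in wild-type replicates 1 to 4. Each genotype held low arrays, up to 4239, and high arrays, from 7113 up. The mean was 7106 ± 3009 in myb5 (SD, n = 3) and 6326 ± 2721 in wild type (SD, n = 4). The genotypes differed by 0.20 on the log2 scale (standard error 0.38, limma adjusted p = 1), and the 95% interval of -0.69 to 1.08 was the widest of the 3 genes. As a ratio of myb5 to wild type that interval is 0.621 to 2.12, and the exact permutation p was 0.686. With a term for the set-apart arrays the difference was 0.03 (standard error 0.13), and the interval narrowed to -0.28 to 0.35. It was 0.02 among the arrays outside the set and 0.05 among the set-apart arrays. For SBT1.7 the corresponding values were -0.05 with the term, -0.04 outside the set and -0.07 inside it.

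**Figure D1:**
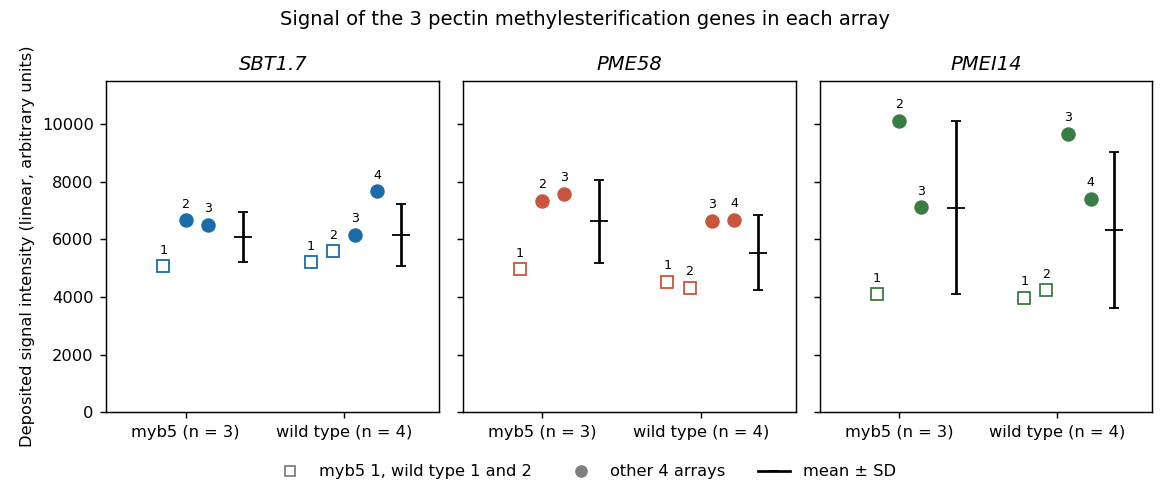
Deposited signal intensity (linear, arbitrary units) of SBT1.7, PME58 and PMEI14 in each array, myb5 left and wild type right, with replicate numbers. Open squares are the set-apart arrays, filled circles the other 4, and black bars the mean ± SD. For PMEI14 the open squares sit between 3980 and 4239 and the circles between 7113 and 10112, in both genotypes.

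The range of each gene within a genotype was wider than the difference between the genotype means, and the low arrays were the same for each gene. In deposited intensities SBT1.7 had 5074 to 5586 in the set-apart arrays and 6152 to 7667 in the other 4. PME58 had 4314 to 4962 in the set-apart arrays and 6653 to 7577 in the others. PMEI14 had 3980 to 4239 in the set-apart arrays and 7113 to 10112 in the others. None of the 3 ranges overlapped, and the highest array stood over the lowest by 1.51 times for SBT1.7, 1.76 times for PME58 and 2.54 times for PMEI14.

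That separation was not particular to these genes. On deposited intensities 15.1% of all probe sets, and 23.4% of the 8622 with a mean intensity of at least 100, were lower in every set-apart array than in every other array. The highest intensity of an array was 10331 to 12047 in the set-apart arrays and 11305 to 14609 in the others, ranges that overlap. The part of signal range in the levels of the 3 genes was not tested. After quantile normalization, which gives every array the same distribution of values, PME58 and PMEI14 still separated. Their gaps between the sets were 0.30 and 0.77 on the log2 scale, and 13.8% of all probe sets were lower in the same way. SBT1.7 no longer separated, because wild-type replicates 1 and 3 both came to 12.52.

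The spread over all 7 arrays ordered the genes the same way. The SD of the normalized log2 level was 0.20 for SBT1.7, and 64.6% of all probe sets varied more. It was 0.34 for PME58, with 24.2% of probe sets above it, and 0.55 for PMEI14, with 6.91% above it. Within genotypes the SD of PMEI14 was 0.59 in myb5 and 0.59 in wild type.

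**Figure D2:**
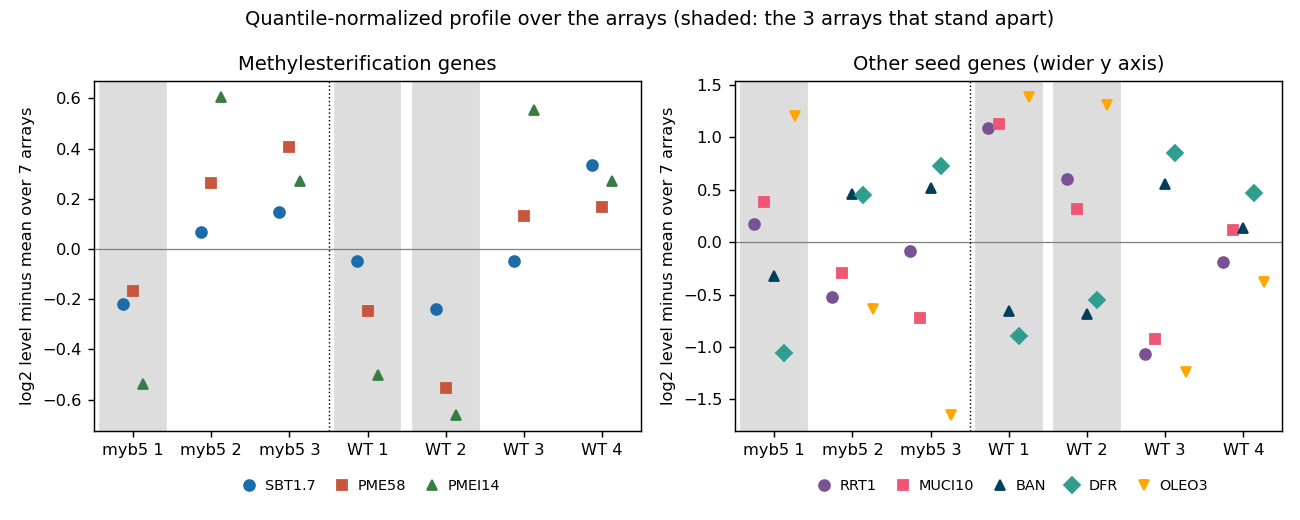
Quantile-normalized log2 level minus its mean over the 7 arrays, for the 3 methylesterification genes (left panel) and for 5 other seed genes (right panel, wider axis), with myb5 arrays left of wild-type (WT) arrays. Each point is 1 array and grey bands mark the set-apart arrays. PMEI14 and PME58 lie below 0 in all 3 grey bands, with BAN and DFR, while OLEO3, RRT1 and MUCI10 lie above 0 there.

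Of 8 measured markers of seed tissues and stages 0 passed between genotypes, against 0.0044% of all probe sets. Along the same split of arrays 5 separated, 3 lower and 2 higher in every set-apart array. Over all probe sets the shares were 13.8% lower and 11.6% higher. OLEO3, an oil body protein gene of maturing seeds, had 4435 to 5364 in the set-apart arrays and 610 to 1469 in the others. PAP85, a storage protein gene, had 376 to 1979 in the set-apart arrays and 13.8 to 21.9 in the others. BAN, which encodes anthocyanidin reductase, had 2684 to 3424 in the set-apart arrays and 4681 to 6754 in the others. DFR, which encodes dihydroflavonol reductase, had 1383 to 2143 in the set-apart arrays and 3906 to 5381 in the others. PME58 and PMEI14 were thus low in the arrays where BAN and DFR were low and the maturation genes were high. The endosperm markers IKU2 and AGL62 and the embryo marker CLV3 read between 0.26 and 17.8 over all arrays, and the fruit wall marker ALC between 49.3 and 119.7. ALC separated too, at 49.3 to 70.9 in the set-apart arrays and 78.1 to 119.7 in the others. Of the lists, 2 of 8 seed coat endothelium, 2 of 7 endosperm, 1 of 7 embryo, 2 of 11 maturation and 1 of 6 fruit wall genes were measured. A gene counts as measured where a probe set names it alone. The part of stage or tissue make-up in the levels of the 3 genes was not tested.

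The nearest profiles over the 7 arrays were sought among 4429 other probe sets that name 1 gene and average at least 100. For PMEI14 they were AT4G13840, AT2G45700 and AT2G45840, at Pearson r of 0.994, 0.993 and 0.99. For PME58 they were AT1G31780, AT5G53880 and AT2G21380, at 0.993, 0.992 and 0.991. For SBT1.7 they were AT5G65910, AT3G21610 and AT5G45650, at 0.969, 0.968 and 0.968. Because PME58 and PMEI14 themselves separate the set-apart arrays from the others, profiles chosen for likeness to them could be expected to do the same, and these values are a description only. AT4G13840, for example, had 242 to 336 in the set-apart arrays and 668 to 1000 in the others.

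Relatives of the 3 genes also gave no call between genotypes. Relatives were found by symbol or synonym, so family members without such a name are missing from these lists. With the 3 genes, the lists held 17 methylesterases, 6 inhibitors and 15 subtilases. Of these 5, 1 and 11 had a probe set of their own. Of the other 14 relatives 0 passed in either direction, and 0 had an unadjusted limma p under 0.05. Over all probe sets the shares were 0.0044% and 3.46%, so counts of 0 among 14 do not set the relatives apart. Their differences lay above 0 for 10 and below 0 for 4, with a median of 0.09 on the log2 scale, against -0.00035 over all probe sets. PMEPCRF, a methylesterase gene, averaged 247 ± 50.3 in myb5 (SD, n = 3) and 276 ± 42.6 in wild type (SD, n = 4), a log2 difference of -0.16. The subtilase genes SBT3.12 and SBT3.5 had the smallest p-values of their family, with log2 differences of 0.27 and 0.30 at mean intensities of 36.2 and 32.7 in myb5 and 25.3 and 21.8 in wild type.

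Several relatives differed more between the sets of arrays than between genotypes, and in opposite directions. SBTI1.1, a subtilase gene, had 5315, 1164 and 444 in myb5 replicates 1 to 3, against 4416, 3214, 555 and 1308 in wild-type replicates 1 to 4. SBT4.13, another subtilase gene, had 722, 201 and 184 in myb5, against 829, 647, 132 and 296 in wild type. Both were thus high in the set-apart arrays, where PME58, PMEI14 and, on deposited intensities only, SBT1.7 were low. The log2 differences of SBTI1.1 and SBT4.13 between genotypes were -0.29 and -0.34. SBT1.3 and PME61, chosen after their values were seen, ran the other way. SBT1.3, a subtilase gene, had 988 to 1059 in the set-apart arrays and 1695 to 2386 in the others. PME61, a methylesterase gene, had 454 to 493 in the set-apart arrays and 533 to 696 in the others. Their log2 differences between genotypes were 0.40 and 0.16. Of the 17 measured family members, 5 were lower and 2 higher in every set-apart array on the normalized scale, against 13.8% and 11.6% of all probe sets.

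**Figure D3:**
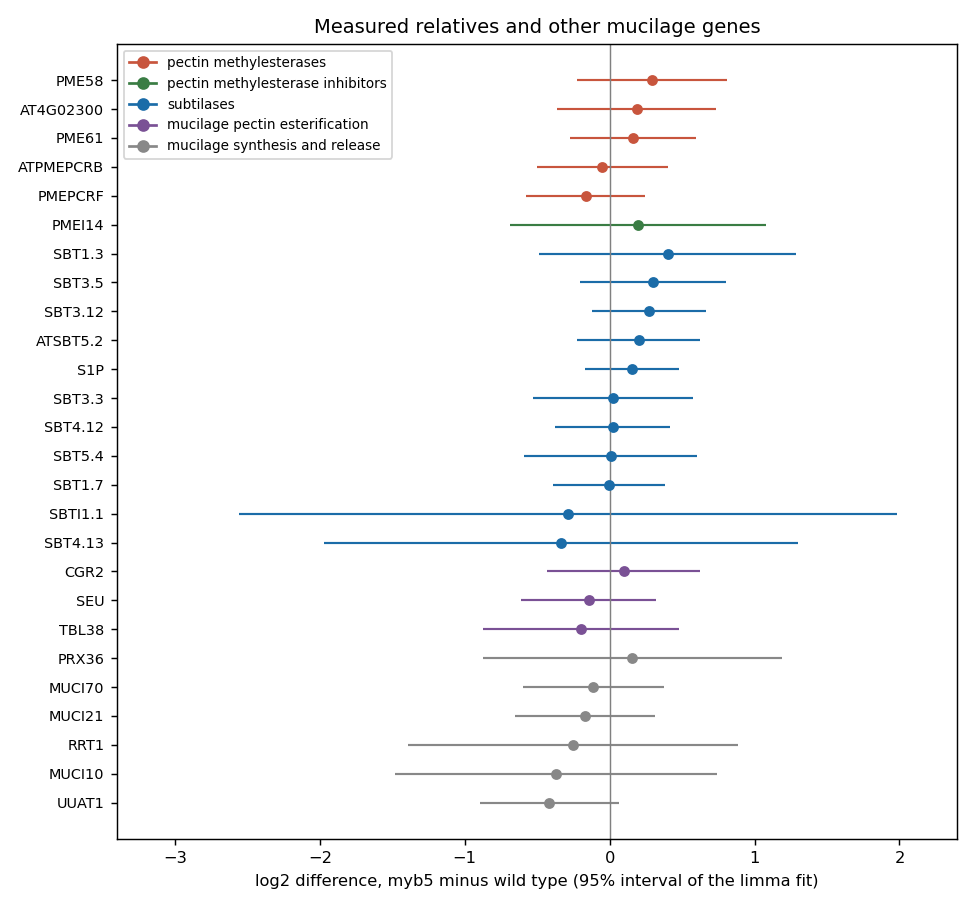
Log2 difference, myb5 minus wild type, with the 95% interval of the limma fit, for the measured methylesterases, inhibitor and subtilases and for the other measured mucilage genes, 1 row a gene. Every interval spans 0, and the widest, of SBTI1.1, runs from -2.56 to 1.98.

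Other genes of mucilage pectin and polysaccharides gave no call either. Of 19 genes listed for pectin esterification 6 were measured, and of 19 for synthesis and release 6. The remaining genes had no probe set naming them alone, and may still be on the array, where 8730 probe sets have no gene name. Beside the 3 genes, 9 were thus measured. In the main fit of all 7 arrays 0 of 9 passed in either direction, with 0 under an unadjusted limma p of 0.05. Over all probe sets the shares were 0.0044% and 3.46%, so these counts of 0 do not set the 9 genes apart. The differences of the 9 genes lay above 0 for 2 and below 0 for 7, with a median of -0.17. Over all probe sets 11351 lay above 0 and 11395 below, with a median of -0.00035. UUAT1, which carries UDP-uronic acids into the Golgi, had 635, 540 and 466 in myb5 replicates 1 to 3, against 994, 609, 618 and 800 in wild-type replicates 1 to 4. The 2 genotypes overlapped, and on the log2 scale they differed by -0.42 (standard error 0.21, limma adjusted p = 1, unadjusted 0.08). TBL38, which acts on pectin acetyl groups, averaged 2400 ± 291 in myb5 and 2966 ± 965 in wild type (SD, n = 3 and 4), a log2 difference of -0.20. SEU, a transcriptional co-regulator, and MUCI21, of xylan side chains, had log2 differences of -0.14 and -0.17.

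Of the 6 measured genes of mucilage synthesis and release, 2 were higher in every set-apart array, where PME58 and PMEI14 were low. The other 4, UUAT1, MUCI21, MUCI70 and PRX36, overlapped between the sets of arrays. So did TBL38, CGR2 and SEU, the other measured genes listed for pectin esterification. Of these 9 mucilage genes 0 were thus lower in every set-apart array on the normalized scale, against 13.8% of all probe sets. RRT1, a rhamnosyltransferase of the pectin rhamnogalacturonan I, had 798 to 1534 in the set-apart arrays and 326 to 655 in the others. MUCI10, a galactosyltransferase of mucilage galactoglucomannan, had 819 to 1438 in the set-apart arrays and 327 to 691 in the others. On the normalized scale 11.6% of all probe sets were higher in the set-apart arrays in this way. The log2 differences between genotypes were -0.25 for RRT1 and -0.37 for MUCI10, and that of MUCI10 was -0.046 when wild-type replicate 1 was left out and -0.73 when replicate 3 was. DF1, a trihelix transcription factor and the measured 1 of 14 seed coat regulators, had a log2 difference of 0.30 (standard error 0.21). ADPG1, a polygalacturonase and the measured 1 of 16 names listed for homogalacturonan synthesis and degradation, had -0.32 (standard error 0.28). In that list ADPG2 and PGAZAT name the same gene, and PGX2 matched no gene.

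How the genotype difference of the 3 genes moved with the processing and with single arrays is shown for 19 alternatives. PME58 stayed above 0 in all 19, from 0.16 to 0.46 on the log2 scale. PMEI14 ran from -0.046 without myb5 replicate 2 to 0.53 without myb5 replicate 1, and SBT1.7 from -0.084 to 0.11. None of the 3 passed under any of them, and the smallest limma adjusted p was 0.684, for PME58 without myb5 replicate 1.

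**Figure D4:**
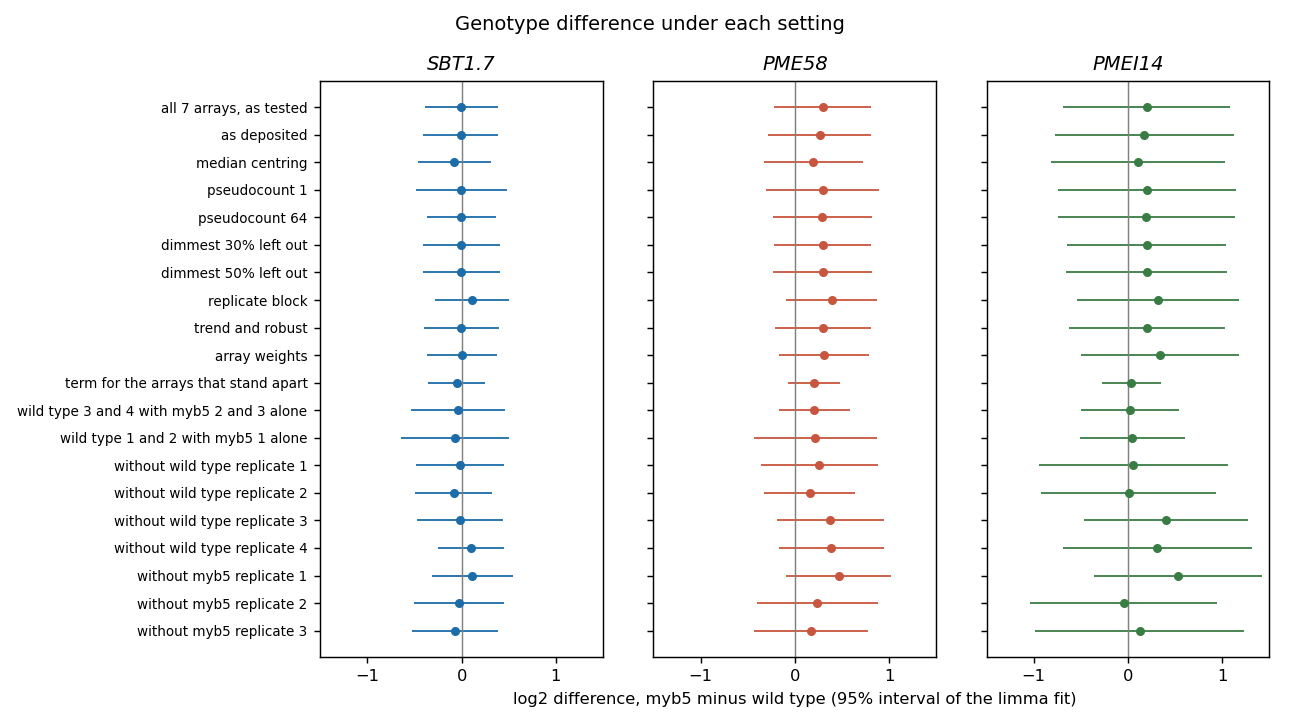
Log2 difference, myb5 minus wild type, of SBT1.7, PME58 and PMEI14 in the fit of all 7 arrays (top row) and in each of 19 alternatives, with the 95% interval of that limma fit. All intervals span 0. The PMEI14 interval is narrowest with a term for the set-apart arrays, at -0.28 to 0.35.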

How the data were processed

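Total RNA of dissected seeds was amplified in 2 rounds from an oligo(dT) primer and biotin-labelled, per the labels' protocols. Each deposited value is a linear signal intensity of 1 probe set on 1 array, scaled by the authors: the mean after dropping 2% at each end was 150.01 in all 7 arrays. Which software made them is not given in the sources. The small number of arrays limits precision. Control probe sets (64) were dropped, and log2(intensity + 16) was quantile normalized, which at the bright end leaves values that depend on rank. This scale understates changes of dim probe sets. Genotypes were compared with limma (version 3.58.1, R 4.3.3) over all 22746 probe sets with genotype as the only term. Benjamini-Hochberg adjustment ran over all of them, with a threshold of 0.05. The fit was also run on simulated data with independent noise in each array. Those data lacked the split between the sets of arrays, so they could not test the fit under it. Exact permutation tests used the 35 splits of the arrays, with a smallest possible p of 0.0286. Intensities of different probe sets are not comparable as transcript amounts.

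Of the probe sets, 13513 had a single gene name, 503 had several and 8730 have none in the table used. Locus tags of SBT1.7, PME58 and PMEI14 came with their choice, and those of UUAT1, MUCI10, MUCI21, MUCI70, RRT1, PRX36, DF1 and CGR2 from general knowledge. The genes and lists were chosen with earlier results of these data known. In each list the text names the 2 genes with the smallest p and the 2 with the widest range at a mean intensity of at least 100; markers are given as levels. The alternatives were other scalings, pseudocounts of 1 and 64, leaving out the dimmest 30% or 50%, a replicate block, other variance settings, array weights, a term for the set-apart arrays, each set alone, and each array left out.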

Additional observations from a re-analysis of the deposited data

Results flagged for a closer look

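Of 26 wild-type groups of 4 arrays searched for a far array, 4 had one, and chance gives about 1 in 20; SBT1.7, PME58 and PMEI14 were not among them. On the normalized log2 scale MUCI21 had 6.499 in wild-type replicate 1, and the remaining wild-type arrays 6.08 to 6.13. SBT3.5 had 4.74 in wild-type replicate 2, against 5.34 to 5.45 in the others. IKU2 had 4.68 in wild-type replicate 3, against 4.26 to 4.33, and CLV3 had 4.11 in wild-type replicate 3, against 4.50 to 4.55. The myb5 group has 3 arrays and was not searched.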

How the results depend on the processing

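Of the 3 genes 0 passed under any of the 19 alternatives, and the counts of 0 passing family and mucilage genes held in each. The probe sets passing in the whole table were 1, with 2 when the dimmest 50% were left out, 0 with the replicate block, 0 in either set of arrays alone, where fewer samples were fitted, and 1 to 2 when each array was left out. The difference of SBT1.7 reversed to 0.11 with the replicate block and 0.006 with array weights. With each array left out it ran from -0.084 to 0.11, that of PMEI14 from -0.046 to 0.53 and that of PME58 from 0.16 to 0.46. With the replicate block PME58 had 0.39 (limma adjusted p = 0.741) and PMEI14 0.32; the block changed no call of a gene named here. Deviations of same-numbered samples correlated at 0.63, -0.30 and 0.55 for replicates 1 to 3, so the numbers were not taken to pair the samples. In the set-apart arrays alone, where the spread of the single myb5 array is taken from wild type, differences reversed for MUCI21 (0.19), ADPG1 (0.11), SBTI1.1 (0.58), PMEPCRF (0.052) and SBT1.3 (-0.061). In the other 4 arrays alone RRT1 reversed to 0.32, and with a term for the set SBTI1.1 reversed to 0.11. With each array left out, RRT1 ran from -0.65 to 0.072, SBTI1.1 from -1.26 to 0.55, SBT4.13 from -0.95 to 0.027 and PMEPCRF from -0.26 to 0.013. Without a change of sign, MUCI10 ran from -0.73 to -0.046, ADPG1 from -0.64 to -0.11, SBT1.3 from 0.17 to 0.83, TBL38 from -0.42 to -0.023, MUCI21 from -0.40 to -0.026, SEU from -0.30 to -0.052, PME61 from 0.062 to 0.29, SBT3.5 from 0.14 to 0.41, SBT3.12 from 0.19 to 0.41, DF1 from 0.18 to 0.42 and UUAT1 from -0.52 to -0.28. Unadjusted limma p fell under 0.05 for UUAT1 with array medians made equal (0.039) and without wild-type replicate 2 (0.0474). Without myb5 replicate 1 it did so for MUCI21 (0.0472), ADPG1 (0.0199) and SBT1.3 (0.0267). In the 4 arrays outside the set it did so for ADPG1 (0.0408) and SBT1.3 (0.0331). None of these passed after adjustment. The cause of these changes was not tested.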
